A study of Mus musculus with 17 samples.

Results

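The genes described here are 9 components of signalling from the B cell receptor: Cd79a, Cd79b, Cd22, Syk, Lyn, Btk, Blnk, Plcg2 and Ptpn6. They were chosen by name, and each had 1 row among the 55536 genes of the deposited count table. Splenic B cells of mice were sorted by FACS and their RNA was sequenced in 17 libraries, which form 6 groups. Mice labelled p52 knock-in (p52ki) gave 3 naive, 3 activated and 2 germinal centre (GC) libraries. Wild-type mice (WT) gave 3 libraries at each of those stages. By its title, the series asks what p52, the NF-kB subunit encoded by Nfkb2, does together with ETS1, another transcription factor, when germinal centres form. The nature of the knock-in allele, the age of the mice, the immunisation and the sorting gates are not stated in the labels. The replicates are numbered 2, 3 and 5 in p52ki (2 and 5 in p52ki GC) and 1, 3 and 4 in WT. The last numbers in the column names of the count table form 1 block per genotype. The labels do not say what these numbers mean. If they follow an order of processing, that order and genotype cannot be told apart. No label says that replicates came from separate animals, so p-values cover only the spread among these libraries, which may be technical.

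The B cell receptor is a membrane antibody held together with a pair of signalling proteins, CD79A and CD79B, whose tails carry tyrosine motifs. After antigen binding the Src-family kinase LYN phosphorylates these tails, and the kinase SYK docks on them. SYK phosphorylates the adaptor BLNK, which brings BTK to PLCG2, the phospholipase that starts calcium release. The coreceptor CD22 recruits the phosphatase SHP-1, the product of Ptpn6, which dampens the signal. LYN also phosphorylates CD22 and so acts in both directions. Naive B cells have not met antigen. GC B cells are dividing, antigen-selected cells that mutate their antibody genes.

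The libraries held 4067281 to 10036347 counts assigned to genes, and the 9 genes together took 0.75% to 1.42% of them. All 9 passed the filter on low counts. Levels are given as CPM, counts scaled to a common library total, after TMM scaling, a scaling that evens out differences in library composition. In 3 GC libraries, p52ki replicates 2 and 5 and WT replicate 3, between 11232 and 13044 genes had at least 1 count, against 16745 to 19672 in the other 14. All results in GC cells rest on these libraries, and both p52ki GC libraries are among them. The 8 GC markers, which include Bcl6 and S1pr2, summed to 1007 to 1621 CPM in p52ki GC libraries and 1580 to 2695 CPM in WT GC libraries. They summed to at most 74.3 CPM in naive libraries of either genotype, so GC libraries of both genotypes stood far above naive ones. S1pr2 had 47.96 to 68.89 CPM in p52ki GC and 153.1 to 297.2 CPM in WT GC libraries. Gcsam had 128.9 to 158.5 CPM in p52ki GC and 377.1 to 616.5 CPM in WT GC libraries. Mki67 and Mybl1 were also lower in p52ki GC libraries without overlap. For Bcl6, Fas, Rgs13 and Nuggc the genotypes overlapped in GC cells, and 0 of the 8 were called there. The 4 B lineage markers, Ms4a1, Pax5, Ebf1 and Cd74, were present in every group. The 6 plasma cell markers summed to 2687 to 2739 CPM in p52ki GC and 2665 to 5911 CPM in WT GC libraries. In activated libraries they summed to 1590 to 3209 CPM in p52ki and 1885 to 8145 CPM in WT. Naive libraries had 216 to 261 CPM in p52ki and 263 to 336 CPM in WT. Among these markers Prdm1, a regulator of plasma cell fate, was at 0 in both p52ki GC libraries. In WT GC libraries it had 4.62 to 17.9 CPM. Xbp1 was also lower, with 251.7 to 315.9 CPM in p52ki GC and 397.5 to 594 CPM in WT GC libraries. Tnfrsf17 went the other way, with 6.89 to 26.2 CPM in p52ki GC and 0 to 2.5 CPM in WT GC libraries. The GC libraries of the genotypes overlapped for Sdc1, Jchain and Mzb1. Other cell types had lower sums: 16 myeloid markers summed to 134 to 140 CPM in p52ki GC and 36.9 to 58.1 CPM in WT GC libraries. In activated libraries they summed to 129 to 203.7 CPM in p52ki and 105.7 to 204.3 CPM in WT. Of the 16, 9 were at 0 in both p52ki GC libraries, among them Lyz2, Csf1r and Itgam. Ly6c2 went the other way, with 25.43 to 104.9 CPM in p52ki GC and 3.08 to 11.85 CPM in WT GC libraries. So did C1qb, with 15.75 to 30.67 CPM in p52ki GC and 1.63 to 12.42 CPM in WT GC libraries. The 9 erythroid and platelet markers summed to 326 to 372 CPM in p52ki GC and 48.9 to 236 CPM in WT GC libraries, with 5 of 9 at 0 in p52ki GC. The 9 T cell markers summed to 0.82 to 38 CPM in p52ki GC and 9.57 to 12.5 CPM in WT GC libraries, and 7 NK cell markers to 0 to 33 CPM in p52ki GC and 0.611 to 8.37 CPM in WT GC libraries. Their part in the GC results was not tested. In these bulk samples, fewer cells of a type and less RNA per cell cannot be told apart.

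Promoter windows were read from RefSeq (GRCm38.p6), from 250 bases before to 50 bases after each annotated start. Windows were matched for 7 of the 9 genes (Cd79a, Cd22, Syk, Btk, Blnk, Plcg2 and Ptpn6). The windows of Cd79a, Cd22 and Ptpn6 are printed because these genes changed between groups below and because the series concerns an NF-kB subunit and an ETS factor. Capitals mark every match, on either strand, to the ETS core GGAA, the NF-kB pattern GGGNNNNNCC or the EBF pattern CCCNNGGG. The Cd79a window lies at chr7:24897247-24897546 on the plus strand, the Cd22 window at chr7:30878979-30879278 on the minus strand and the Ptpn6 window at chr6:124738660-124738959 on the minus strand. Each is written 5′ to 3′ along its gene.
Cd79a: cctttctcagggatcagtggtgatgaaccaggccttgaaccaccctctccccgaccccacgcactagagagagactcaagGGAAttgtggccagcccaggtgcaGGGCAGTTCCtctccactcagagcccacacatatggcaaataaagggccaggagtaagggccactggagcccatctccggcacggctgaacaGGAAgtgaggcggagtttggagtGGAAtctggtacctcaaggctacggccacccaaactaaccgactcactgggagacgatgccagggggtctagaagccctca
Cd22: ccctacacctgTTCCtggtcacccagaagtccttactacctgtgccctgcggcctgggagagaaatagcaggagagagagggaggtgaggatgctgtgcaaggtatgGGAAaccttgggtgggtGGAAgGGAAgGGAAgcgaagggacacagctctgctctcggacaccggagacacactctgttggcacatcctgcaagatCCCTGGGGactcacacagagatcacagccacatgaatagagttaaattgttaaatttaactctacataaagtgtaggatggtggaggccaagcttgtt
Ptpn6: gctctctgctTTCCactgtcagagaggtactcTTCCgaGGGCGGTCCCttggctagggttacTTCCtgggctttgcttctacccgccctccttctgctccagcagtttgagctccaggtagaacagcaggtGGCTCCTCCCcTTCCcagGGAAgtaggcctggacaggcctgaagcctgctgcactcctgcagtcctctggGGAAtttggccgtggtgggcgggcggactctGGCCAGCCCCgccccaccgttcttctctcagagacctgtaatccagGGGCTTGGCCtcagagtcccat
The Cd79a window held 4 GGAA matches, 1 GGGNNNNNCC match and 0 CCCNNGGG matches. The Cd22 window held 5 GGAA matches, 0 GGGNNNNNCC matches and 1 CCCNNGGG match. The Ptpn6 window held 6 GGAA and 4 GGGNNNNNCC matches and no CCCNNGGG match. Of 32851 mouse windows of the same length, 96% held GGAA, 50.8% GGGNNNNNCC and 13.7% CCCNNGGG. A longer ETS pattern, CCGGAA, was in 14.9% of all windows and in none of the 8 windows of these genes (Syk has 2). A match is a description of the letters and not a binding site.

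Levels of different genes were compared as RPKM, that is CPM per kilobase of exon. Cd79a and Cd79b stood far above the other 7 genes in every group. In p52ki naive cells Cd79a averaged 3121 RPKM and Cd79b 2057 RPKM, and in WT naive cells they averaged 2934 and 2233 RPKM. Ptpn6 came next in all 6 groups, from 184 RPKM in p52ki GC cells to 386 RPKM in p52ki naive cells. Cd22, Lyn and Blnk followed, between 71.5 and 176 RPKM. Syk, Btk and Plcg2 were lowest, between 26 and 62.3 RPKM, and their order changed between groups; in WT naive cells the range of Syk (36.5 to 39.4 RPKM) lay below those of Plcg2 (42.2 to 47.2 RPKM) and Btk (44.5 to 50.3 RPKM), and in the other groups the ranges of Syk and Plcg2 overlapped. The order of Cd79a and Cd79b was the other way round only in WT GC cells, where Cd79b averaged 1792 RPKM and Cd79a 1742 RPKM, and their ranges overlapped there.

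**Figure D1:**
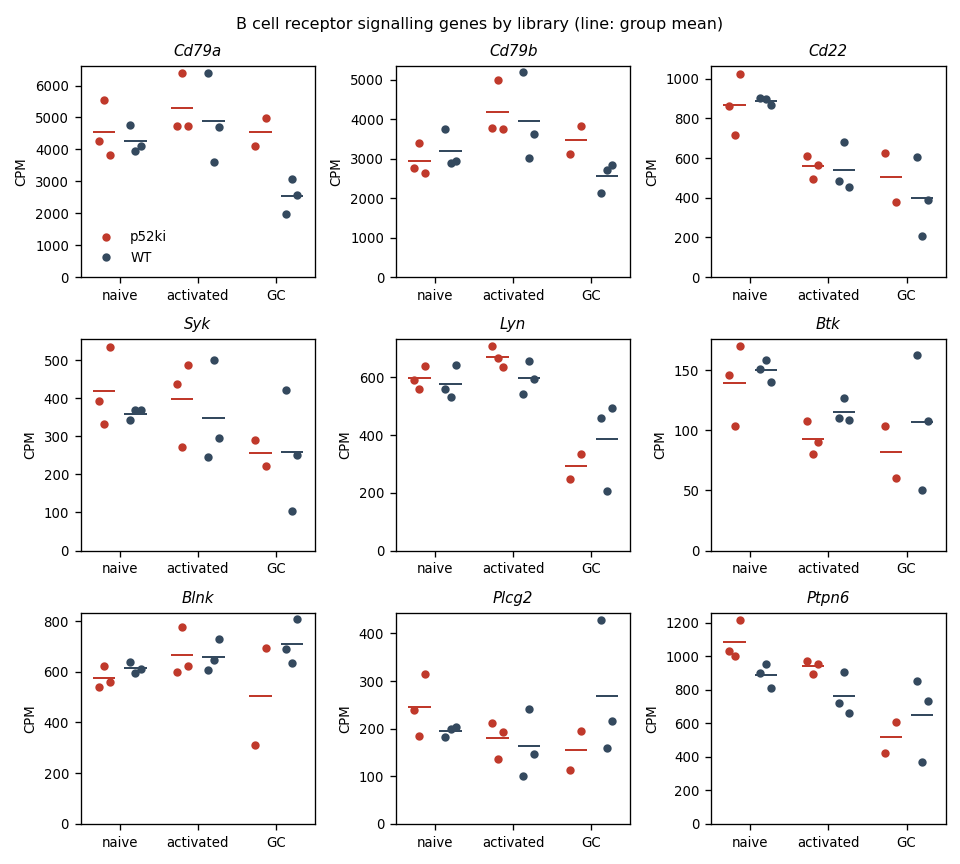
Level of each of the 9 genes in every library, in CPM on a linear axis from 0, with naive, activated and GC cells from left to right; red points are p52ki libraries, dark points WT libraries and lines group means. Cd79a in GC cells lies between 4109 and 4977 CPM in p52ki and between 1987 and 3065 CPM in WT, whereas the genotypes overlap in naive and activated cells.

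Calls were made with edgeR's quasi-likelihood test over 15352 genes in each comparison, at a Benjamini-Hochberg adjusted p under 0.05, and SE is the standard error of a log2 difference. Between p52ki and WT, 0 of the 9 genes were called in naive cells, where 0% of all genes tested were called, and 0 of 9 in activated cells (background 0.013%). At an unadjusted p under 0.05 there was also none of the 9 at either stage. Of all genes tested, 0.521% in naive and 0.873% in activated cells had such a p. That is a smaller share than this threshold gives where no gene differs. The lack of calls at these stages therefore does not show equal levels. The log2 differences of the 9 genes, p52ki minus WT, ran from -0.12 to 0.33 in naive and from -0.32 to 0.30 in activated cells, with SEs of 0.218 to 0.397. In GC cells 1 of 9 was called, Cd79a, which was higher in p52ki; 16% of all genes tested were called there. One called gene of 9 is no larger a share than that background. Over the 9 genes the median log2 difference in GC cells was -0.34, close to the -0.32 of all genes tested.

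**Figure D2:**
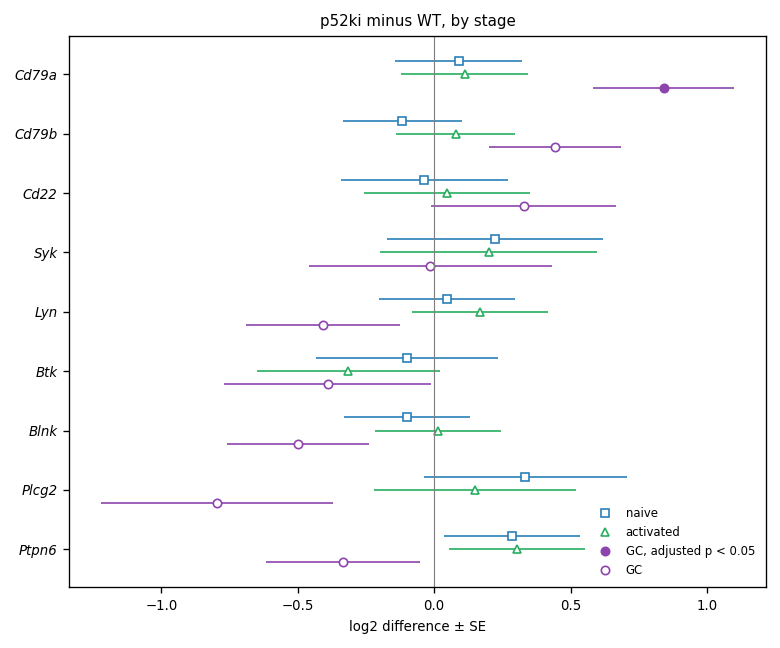
Log2 difference of each gene, p52ki minus WT, in naive (squares), activated (triangles) and GC cells (circles); bars are 1 SE either side and the filled symbol marks an adjusted p under 0.05. Cd79a in GC cells, at 0.84, is the called difference, and the GC symbols spread from -0.80 to 0.84.

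Between stages the calls lay in GC cells. Activated minus naive gave 0 of 9 in p52ki (background 0.117%) and 0 of 9 in WT (0.319%), with 1 of the 9 at an unadjusted p under 0.05 in each genotype. Of all genes tested, 4% in p52ki and 5.6% in WT had such a p. GC minus activated gave 2 of 9 lower in p52ki, Lyn and Ptpn6 (background 25.6%), and 1 of 9 lower in WT, Cd79a (13.6%). GC minus naive gave 2 of 9 lower in p52ki, again Lyn and Ptpn6 (29.1%), and 2 of 9 lower in WT, Cd79a and Cd22 (15.9%). All shares lie near or under their backgrounds. None of the 9 genes was called higher in GC cells. The difference between genotypes of activated minus naive gave 0 of 9 (background 0%), and that of GC minus activated gave 0 of 9 (background 5.95%). These last tests bear on whether a stage change called in 1 genotype differs from the other genotype. Of all genes tested, 0.423% for activated minus naive and 23.6% for GC minus activated had an unadjusted p under 0.05 in them. None of the 9 genes passed these tests, either adjusted or at that unadjusted p. Leaving out 1 library changed that: without WT GC replicate 3, Lyn (adjusted p = 0.0356) and Ptpn6 (adjusted p = 0.0463) passed the test for GC minus activated, and without p52ki GC replicate 5, Blnk did (adjusted p = 0.00935). Without WT GC replicate 3, both p52ki GC libraries but no WT GC library have few detected genes. Genotype and detected genes then cannot be told apart in GC cells. The difference between genotypes of GC minus naive was not tested. DESeq2 also called 0 of the 9 wherever edgeR called 0.

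**Figure D3:**
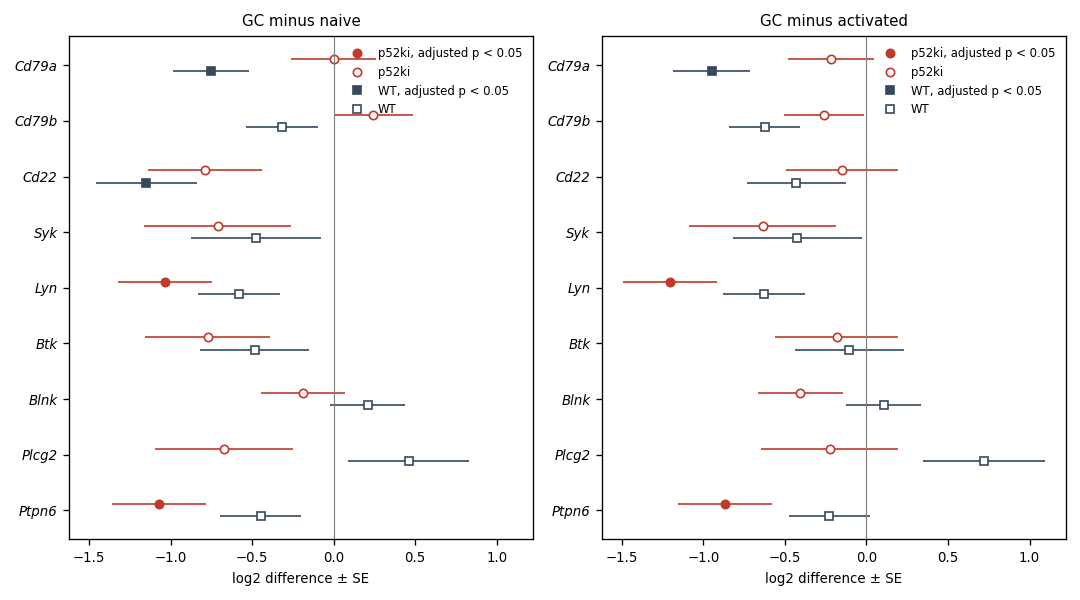
Log2 difference of GC minus naive (left) and GC minus activated (right) for each gene, in p52ki (red circles) and WT (dark squares); bars are 1 SE either side and filled symbols mark an adjusted p under 0.05. Lyn and Ptpn6 are filled in p52ki in both panels, Cd79a is filled in WT in both panels, and Cd22 is filled in WT on the left.

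Cd79a (ENSMUSG00000003379, chr7:24897381-24902197, plus strand, GRCm38) encodes the signalling subunit CD79A. In naive cells it had 4256, 5554 and 3830 CPM in p52ki and 4767, 3946 and 4112 CPM in WT. In activated cells it had 4728, 6395 and 4737 CPM in p52ki and 6398, 3602 and 4688 CPM in WT. The genotypes overlapped at both stages. In GC cells it had 4109 and 4977 CPM in p52ki, against 1987, 3065 and 2564 CPM in WT. Both p52ki GC libraries were above all 3 WT GC libraries and within the range of naive and activated cells, and all 3 WT GC libraries were below every other library. In GC cells Cd79a was 1.79-fold higher in p52ki than in WT (log2 0.84, SE 0.258, adjusted p = 0.0397). In WT it fell by 0.95 on the log2 scale relative to activated cells (SE 0.236, adjusted p = 0.0146) and by 0.75 relative to naive cells (SE 0.235, adjusted p = 0.0411). In p52ki the GC minus activated difference was -0.22 (adjusted p = 0.573) and turned to 0.07 without p52ki activated replicate 3. The difference between genotypes of the GC minus activated change was 0.73 (SE 0.35, adjusted p = 0.222), so it was not called.

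The GC difference of Cd79a kept its sign under all 15 alternatives run for it, with log2 values of 0.54 to 1.12, but its adjusted p was above 0.05 in 8 of them. Without WT GC replicates 1 or 4 the adjusted p was 0.119 and 0.0817, and without p52ki GC replicates 2 or 5 it was 0.0585 and 0.13. Against WT GC replicate 3 alone, the WT library with as few detected genes as the p52ki ones, it was 0.57 (adjusted p = 0.269, with the lone library assumed to vary like the others). In a fit with detected genes as a covariate it was 0.58 (adjusted p = 0.162). The WT fall relative to activated cells lost its call without WT activated replicate 1 (log2 -0.64, adjusted p = 0.138) and without WT GC replicate 1 (-0.80, adjusted p = 0.059). That relative to naive cells lost it without WT naive replicates 1, 3 or 4 or WT GC replicates 1 or 4 (adjusted p of 0.0787 to 0.248), and with the replicate block (-0.73, adjusted p = 0.0788). The 5 markers of naive follicular cells, Fcer2a, Ighd, Ccr7, Klf2 and S1pr1, were as a sum also higher in p52ki GC cells. They summed to 1204 to 1380 CPM in p52ki GC and 443 to 599.7 CPM in WT GC libraries. Of these 5, 4 were called higher in p52ki GC cells, and in naive cells they summed to 6361 to 7501 CPM over both genotypes. Between stages they did not follow Cd79a. In activated cells they summed to 2978 to 3657 CPM in p52ki and 2362 to 3350 CPM in WT, below all naive sums. Activated minus naive, Cd79a had log2 differences of 0.22 in p52ki and 0.20 in WT, neither called. The part of these markers in the Cd79a difference was not tested.

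Cd79b (ENSMUSG00000040592, chr11:106311341-106314762, minus strand) encodes the partner subunit CD79B. In naive cells it had 2775, 3407 and 2647 CPM in p52ki and 3756, 2891 and 2939 CPM in WT. In activated cells it had 3786, 4990 and 3755 CPM in p52ki and 5205, 3018 and 3640 CPM in WT. GC cells had 3134 and 3837 CPM in p52ki, against 2135, 2725 and 2832 CPM in WT. The GC libraries did not overlap between genotypes, but the log2 difference of 0.44 (SE 0.242, adjusted p = 0.219) was not called. In WT its GC minus activated difference was -0.62 (SE 0.219, adjusted p = 0.074). That value passed the threshold with another scaling of the libraries (RLE, -0.69, adjusted p = 0.037) and in DESeq2 (-0.70, adjusted p = 0.0229), as well as without WT activated replicate 3 (-0.79, adjusted p = 0.0384).

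The ratio of Cd79b counts to Cd79a counts needs no scaling between libraries, and the exons of these genes have nearly the same total length (1431 and 1457 bases). It was 0.652, 0.614 and 0.691 in p52ki naive cells and 0.788, 0.733 and 0.715 in WT naive cells. It was 0.801, 0.780 and 0.793 in p52ki activated cells and 0.814, 0.838 and 0.776 in WT activated cells. In GC cells it was 0.763 and 0.771 in p52ki, against 1.07, 0.889 and 1.11 in WT. All 3 WT GC libraries, the sparse replicate 3 included, were above the other 14 libraries, and the p52ki GC libraries lay just below the activated ones. In naive cells all 3 p52ki libraries lay below all 3 WT libraries. The ratio was picked after its values were seen, so no test is given.

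**Figure D4:**
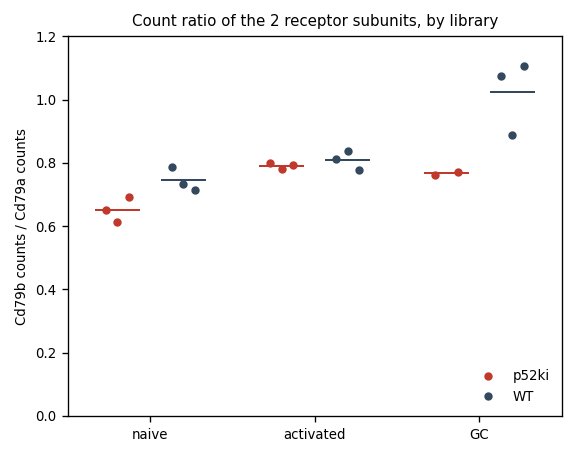
Ratio of Cd79b counts to Cd79a counts in each library, on a linear axis from 0, with stages from left to right, p52ki in red, WT in dark blue and lines at group means. WT GC libraries lie between 0.889 and 1.11, and p52ki GC libraries at 0.763 and 0.771.

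Lyn (ENSMUSG00000042228, chr4:3678115-3813122, plus strand) encodes the kinase that acts first at the receptor. In naive cells it had 590, 560 and 641 CPM in p52ki and 559, 533 and 642 CPM in WT. In activated cells it had 707, 667 and 637 CPM in p52ki and 543, 656 and 593 CPM in WT. GC cells had 249 and 334 CPM in p52ki, and 458, 208 and 492 CPM in WT. Every GC library was below every naive and activated library. In p52ki Lyn fell 2.3-fold relative to activated cells (log2 -1.203, SE 0.289, adjusted p = 0.00876) and by 1.03 relative to naive cells (SE 0.287, adjusted p = 0.0157). In WT the differences were -0.63 to activated (adjusted p = 0.113) and -0.58 to naive cells (adjusted p = 0.132), and both passed with RLE scaling (adjusted p of 0.038 and 0.0458). The difference between genotypes of GC minus activated was -0.57 (SE 0.374, adjusted p = 0.383).

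Within the GC libraries Lyn followed the number of detected genes: 249, 334 and 208 CPM in the 3 sparse libraries, against 458 and 492 CPM in WT GC replicates 1 and 4. In a fit with detected genes as a covariate, the p52ki differences of Lyn were -0.13 (adjusted p = 0.707) relative to activated and -0.05 (adjusted p = 0.892) relative to naive cells. Without p52ki GC replicate 2 they were -1.02 (adjusted p = 0.0624) and -0.85 (adjusted p = 0.0981). In p52ki the GC libraries had 11390 and 13044 detected genes, and the naive and activated libraries 18440 to 19672. Stage and detected genes therefore cannot be told apart within p52ki, and the fit with the covariate does not separate them. Between genotypes the GC difference of Lyn was -0.41 (SE 0.281, adjusted p = 0.334), and without WT GC replicate 3 it was -0.59 and called (adjusted p = 0.0261). That library is the only WT GC library with few detected genes, so without it genotype and detected genes cannot be told apart.

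Syk (ENSMUSG00000021457, chr13:52583173-52648792, plus strand), the kinase that docks on CD79A and CD79B, ran from 103 CPM in WT GC replicate 3 to 533 CPM in p52ki naive replicate 5. In GC cells it had 291 and 221 CPM in p52ki, and 423, 103 and 250 CPM in WT. Its groups overlapped at every stage, and the GC difference between genotypes was -0.01 (SE 0.445, adjusted p = 0.997). Of the 9 genes Syk had the largest spread within groups, a standard deviation of 0.555 on the log2 scale. Against WT GC replicate 3 alone the difference was 1.32 (adjusted p = 0.0483).

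Btk (ENSMUSG00000031264, chrX:134542336-134583570, minus strand), the kinase that activates PLCG2, was between 50.7 and 170 CPM. In naive cells it had 146, 103 and 170 CPM in p52ki and 151, 158 and 140 CPM in WT. In activated cells it had 108, 80.4 and 90 CPM in p52ki and 111, 127 and 108 CPM in WT. All 3 p52ki activated libraries were below all 3 WT activated ones, without a call. In GC cells it had 104 and 60 CPM in p52ki, and 163, 50.7 and 108 CPM in WT, so the genotypes overlapped. Its log2 difference between GC and naive cells in p52ki was -0.77 (SE 0.384, adjusted p = 0.14).

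Blnk (ENSMUSG00000061132, chr19:40928927-40994535, minus strand), the adaptor downstream of SYK, averaged 615 ± 21.9 CPM in naive, 660 ± 62.4 CPM in activated and 710 ± 89.6 CPM in GC cells of WT (SD, n = 3 each). In p52ki it averaged 574 ± 45.1 CPM in naive and 666 ± 95 CPM in activated cells (SD, n = 3 each), and the 2 GC libraries had 313 and 693 CPM. The GC difference between genotypes, -0.50 (SE 0.26, adjusted p = 0.199), rested on p52ki GC replicate 2: without replicate 5 it was -1.19 (adjusted p = 0.00268), and the lowest value on leaving out 1 library in turn was -1.19 and the highest -0.04.

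Plcg2 (ENSMUSG00000034330, chr8:117498291-117635142, plus strand) encodes the phospholipase that starts the calcium signal. In WT it had 427, 160 and 217 CPM in GC cells, against 100, 242 and 146 CPM in WT activated cells. In p52ki it had 114 and 195 CPM in GC cells, against 213, 137 and 192 CPM in activated cells. The WT difference of GC minus activated was 0.72 (SE 0.373, adjusted p = 0.239), with 1.65-fold higher fitted levels. It was not called, and WT GC replicate 1 with its 427 CPM was the highest of all 17 libraries. In GC cells the difference p52ki minus WT was -0.80 (SE 0.425, adjusted p = 0.208).

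Cd22 (ENSMUSG00000030577, chr7:30865402-30880342, minus strand) encodes the inhibitory coreceptor. In naive cells it had 860, 718 and 1024 CPM in p52ki and 902, 899 and 866 CPM in WT. In activated cells it had 612, 494 and 566 CPM in p52ki and 484, 678 and 456 CPM in WT. GC cells had 627 and 378 CPM in p52ki, and 604, 209 and 389 CPM in WT. Every naive library was above every activated and GC library. In WT Cd22 fell by 1.15 on the log2 scale in GC relative to naive cells (SE 0.309, adjusted p = 0.0193), and the difference in p52ki was -0.79 (SE 0.349, adjusted p = 0.0999). The WT call was lost without WT naive replicate 3 (adjusted p = 0.0564) or WT GC replicate 4 (adjusted p = 0.0611); without the sparse WT GC replicate 3 it held at -0.81 (adjusted p = 0.0387). Activated minus naive gave -0.64 in p52ki (adjusted p = 1) and -0.72 in WT (adjusted p = 0.752), neither called, while limma voom with library quality weights called both (adjusted p of 0.0137 and 0.000612). Of the exon bases of Cd22, 479 are shared with Gm29439 on the opposite strand, and without a stated strand setting reads of these genes cannot be told apart.

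Ptpn6 (ENSMUSG00000004266, chr6:124720707-124738714, minus strand) encodes SHP-1, the phosphatase recruited by CD22. In naive cells it had 1030, 999.9 and 1218 CPM in p52ki and 899, 956 and 810 CPM in WT. In activated cells it had 970, 896 and 954 CPM in p52ki and 719, 905 and 661 CPM in WT. In naive cells all p52ki libraries were above all WT libraries, without a call. In GC cells Ptpn6 had 426 and 606 CPM in p52ki, and 852, 370 and 731 CPM in WT. In p52ki it fell by 1.07 on the log2 scale relative to naive cells (SE 0.289, adjusted p = 0.0138) and by 0.87 relative to activated cells (SE 0.287, adjusted p = 0.0384). In WT the GC minus naive difference was -0.45 (SE 0.25, adjusted p = 0.255). The difference between genotypes of GC minus activated was -0.64 (SE 0.377, adjusted p = 0.328).

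As with Lyn, the 3 sparse GC libraries had the lowest Ptpn6 levels of all libraries, 426, 606 and 370 CPM. In the fit with detected genes as a covariate, the p52ki differences of Ptpn6 were -0.22 relative to naive (adjusted p = 0.602) and 0.06 relative to activated cells (adjusted p = 0.919), the last with its sign turned. Without p52ki GC replicate 2 they were -0.85 (adjusted p = 0.0964) and -0.65 (adjusted p = 0.199). Here too, stage and detected genes cannot be told apart within p52ki. The call relative to activated cells was also lost without p52ki activated replicates 2, 3 or 5 (adjusted p of 0.101, 0.0749 and 0.0739) and with the replicate block (log2 -0.93, adjusted p = 0.0748). Lyn and Ptpn6 share 248 and 195 exon bases with genes on the opposite strand.

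A measure of how long and short genes balanced in each library moved with several of the 9 genes, and was looked at after their values were seen. The length balance was the median log2 deviation of long genes (exons of at least 6796 bases) minus that of short genes (at most 2612 bases), over 7036 well-read genes without the 9. It ran from -0.33 to 0.63 in p52ki and from -0.45 to 0.54 in WT naive and activated libraries. In GC libraries it was -0.56 and -0.76 in p52ki, against 0.38, -0.82 and -0.19 in WT. Over the 12 naive and activated libraries the log2 level of Cd79a correlated with it at Pearson's r = -0.95 (Spearman's rho = -0.92) and that of Plcg2 at r = 0.94 (rho = 0.91). Cd79b had r = -0.92, Syk 0.89, Cd22 0.73 and Btk 0.66, with rho of -0.83, 0.87, 0.70 and 0.64. Ptpn6 had r = 0.59, Blnk -0.58 and Lyn 0.27, with rho of 0.55, -0.46 and 0.17. Since the measure was picked after the values were seen, and since these libraries share stages and replicate numbers, the correlations are descriptions and no test is given.

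Leaving out the 2 libraries farthest from the median, r was -0.89 for Cd79a, 0.87 for Plcg2, -0.76 for Cd79b and 0.78 for Syk. It was 0.56 for Cd22 and 0.57 for Btk. Within genotypes, with 6 libraries each, Cd79a had r = -0.996 in p52ki and -0.98 in WT, and Plcg2 had 0.96 in p52ki and 0.98 in WT. The sign did not follow the exon length of every gene. Cd79a (1457 bases) and Cd79b (1431) had negative r and Syk (9362) and Plcg2 (4298) positive r, but Blnk with 5991 bases had a negative r and Ptpn6 with 2802 bases a positive one. With the length balance as a covariate, an alternative chosen after seeing the data, Cd79a was called in GC cells in p52ki against WT (log2 0.54, adjusted p = 0.00456), as were Syk (0.77, adjusted p = 0.0145) and Cd22 (0.80, adjusted p = 0.0281). In that fit Cd79a was also called lower in GC than in activated cells in p52ki (-0.72, adjusted p = 0.00124), as in WT (-1.09, adjusted p = 4.05e-06). The p52ki fall of Lyn relative to activated cells stayed called (-0.86, adjusted p = 0.0421), while that of Lyn relative to naive cells and both falls of Ptpn6 did not. In p52ki both GC libraries had a lower length balance than every naive and activated library. Stage and length balance therefore cannot be told apart within p52ki.

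**Figure D5:**
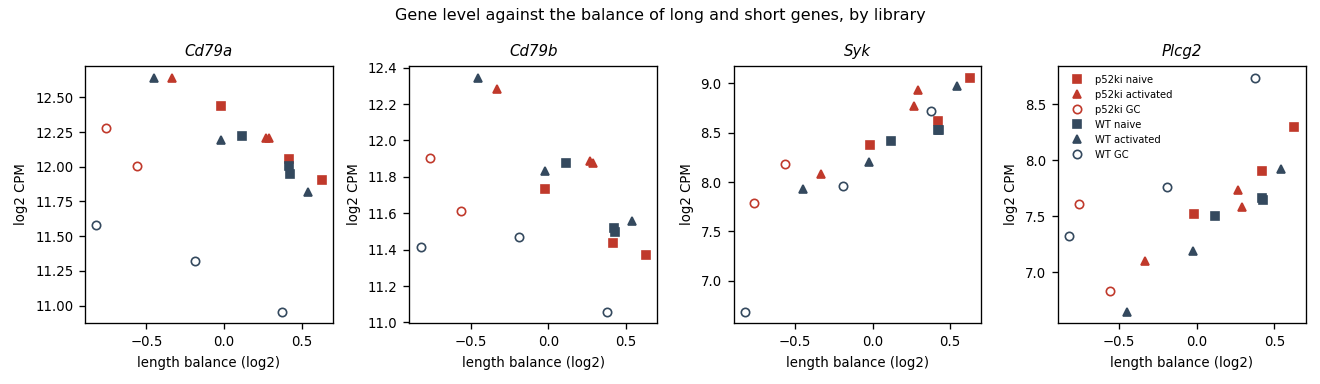
Log2 CPM of Cd79a, Cd79b, Syk and Plcg2 against the length balance of each library (log2, higher where long genes read higher), with p52ki in red, WT in dark blue, naive squares, activated triangles and open GC circles. Over the 12 filled symbols r is -0.95, -0.92, 0.89 and 0.94 from left to right, and the WT GC circles of Cd79a lie below all other Cd79a points.

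The genes whose log2(CPM + 1) over the 17 libraries was most like that of each of the 9 were taken from the 6632 genes that averaged 20 CPM or more. For Cd79a they were Ly6e (r = 0.974) and B2m (0.962); B2m encodes the light chain of MHC class I. For Cd79b they were Idnk (0.895) and Iglc2 (0.891), the second an antibody light chain constant region. Lyn was most like Gypc (0.972) and Zdhhc17 (0.968), and Ptpn6 most like Il16 (0.946) and Dnajc5 (0.944). Cd22 went with Lpcat1 (0.967) and Rap1gds1 (0.957), Syk with Ddx27 (0.95) and Numa1 (0.939), and Btk with Zfp335 (0.935) and Psd4 (0.916). Blnk went with Snrnp40 (0.931) and Tiprl (0.929), and Plcg2 with Ddb1 (0.96) and Afg3l1 (0.943). Among the 9 genes themselves the closest pairs were Lyn with Ptpn6 (r = 0.89) and Cd79a with Cd79b (0.875), and the most opposed was Cd79b with Plcg2 (-0.738). Over the 12 naive and activated libraries alone, Lyn with Ptpn6 was 0.226 and Cd79a with Cd79b was 0.899. These correlations share the scaling and the length balance of the libraries and are descriptions.

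Of 133 further genes of the pathway, in 10 lists by role, 132 were tested. Between p52ki and WT, 0 of 132 were called by edgeR or DESeq2 in naive or activated cells, with 0 and 1 at an unadjusted p under 0.05. Of all genes tested, 0.521% in naive and 0.873% in activated cells had such a p. Between activated and naive cells 0 of 132 were called in either genotype, with 11 in p52ki and 10 in WT at an unadjusted p under 0.05. Of all genes tested, 4% in p52ki and 5.6% in WT had such a p. DESeq2 called 2 and 5 of the 132, and voom with quality weights 22 and 25. The shares of all genes called in those fits are not given here, so these counts do not compare the pathway with other genes. In GC cells 9 were higher and 10 lower in p52ki than in WT, while 575 of all 15352 genes tested were higher and 1875 lower (16% called), so the share of the pathway called was near that of all genes. The median log2 difference was -0.27 against -0.32 over all genes tested. Those higher included Cr2, a complement receptor, at 376 and 422 CPM in p52ki and 147, 164 and 131 CPM in WT GC cells (log2 1.44, SE 0.32, adjusted p = 0.00974). Fcrl1, an activating receptor of the Fc receptor-like family, had 259 and 314 CPM in p52ki, against 150, 170 and 157 CPM in WT (log2 0.85, adjusted p = 0.00591). Cd72, an inhibitory receptor, was 1.63-fold higher (adjusted p = 0.0106), and Tab2, an adaptor of the TAK1 kinase, 3.39-fold higher (adjusted p = 0.00608). In naive cells Cr2 averaged 884 CPM in p52ki and 687 CPM in WT, Fcrl1 343 CPM in p52ki and 349.6 CPM in WT, and Cd72 482 CPM in p52ki and 461 CPM in WT, each above the GC mean of its genotype. The naive follicular markers Fcer2a, Ighd, Ccr7 and Klf2 were also higher in p52ki GC cells, and their part in these differences was not tested. Plcg1, the relative of Plcg2 that prevails in T cells, had no count in either p52ki GC library, against 14.4, 7.53 and 12 CPM in WT, so it was at least 38.5-fold lower, computed from 3 counts over the group. The T cell markers Trac and Lat were also at 0 in both p52ki GC libraries and called lower (adjusted p = 0.0152 and 0.0222), while Cd3d and Cd3e were called higher (adjusted p = 0.0127 and 0.0379), Lat and Cd3e with overlapping libraries. Their part in the Plcg1 difference was not tested. Pik3r5, a regulatory subunit of PI3K, also had no count in p52ki GC cells, against 1.03, 0.611 and 4.02 CPM in WT GC cells. The floor covers counting error only, and both libraries are among those with few detected genes. With voom quality weights, or with the GC groups fitted alone, 0 of 132 were called between genotypes in GC cells.

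Relative to activated cells, GC cells had 6 of the 132 genes higher and 30 lower in p52ki and 6 higher and 24 lower in WT. Of all 15352 genes tested, 974 were higher and 2956 lower in p52ki (25.6% called), and 891 higher and 1190 lower in WT (13.6%). The medians were -0.55 in p52ki and -0.14 in WT, against -0.41 and -0.13 over all genes tested. Of the 10 lists, the inhibitory receptors had the most genes called lower: 7 of 12 in p52ki and 9 of 12 in WT, with none higher. That list was singled out after its counts were seen. Fcrl5, an inhibitory Fc receptor-like protein, had 6.78 and 19.7 CPM in p52ki GC cells, against 120, 128 and 88.6 CPM in p52ki activated cells. It had 1.8, 10.8 and 6.2 CPM in WT GC cells, against 142, 175 and 170 CPM in WT activated cells (log2 -4.72, SE 0.524, adjusted p = 5.63e-05). Sla, an adaptor that promotes loss of antigen receptors from the surface, fell in p52ki (log2 -1.71, adjusted p = 0.000405) and in WT (log2 -2.32, adjusted p = 2.18e-05). Ptpn22, a phosphatase that acts on Src-family kinases, fell in p52ki (log2 -3.26, adjusted p = 0.00094) and in WT (log2 -3.39, adjusted p = 0.000198). In WT Cr2 (-2.18), Rasgrp2 (-1.65) and Cd72 (-1.09) also fell, and these WT values and those of Sla, Fcrl5 and Ptpn22 held under all 15 alternatives.

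Calm3 and Rasgrp3 were among the genes called higher in GC than in activated cells. Calm3, a calmodulin gene, rose by 1.63 on the log2 scale in p52ki relative to activated cells (SE 0.232, adjusted p = 0.000328). Relative to naive cells it rose by 1.56 in p52ki (adjusted p = 0.000335) and by 1.68 in WT (adjusted p = 8.44e-05). Its levels were 222 and 268 CPM in p52ki GC cells and 213 ± 11.8 CPM in WT GC cells (SD, n = 3). Rasgrp3, a RAS exchange factor that PLCG2 products activate, rose by 1.51 in p52ki (adjusted p = 0.00102) and by 1.10 in WT (adjusted p = 0.00486) relative to activated cells. It was not called relative to naive cells, which had 280 to 310 CPM in p52ki and 250 to 299 CPM in WT, against 355 and 445 CPM in p52ki GC cells. Vav3, an exchange factor downstream of SYK, had no count in either p52ki GC library, against 17.03 to 19.95 CPM in p52ki activated cells, and was at least 63.1-fold lower. Pik3r5 was at least 41.2-fold lower in the same comparison. Both were also called lower in WT GC than in WT activated cells: Vav3 had 1.41, 0 and 1.52 CPM in WT GC cells, against 7.64, 22.5 and 15.4 CPM in WT activated cells.

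Relative to naive cells, 3 of the 132 were higher and 39 lower in p52ki GC cells, and 4 higher and 22 lower in WT GC cells. Of all 15352 genes tested, 1333 were higher and 3128 lower in p52ki (29.1% called), and 1298 higher and 1147 lower in WT (15.9%). Bank1, a scaffold that binds LYN, fell in p52ki (log2 -1.52, adjusted p = 0.00201) and in WT (log2 -2.04, adjusted p = 7.11e-05). Sla fell in p52ki (log2 -1.24, adjusted p = 0.00241) and in WT (log2 -2.235, adjusted p = 9.17e-06), and Sh3bp2, an adaptor that binds SYK, fell 3.49-fold in p52ki (adjusted p = 0.00325). Btla, an inhibitory receptor, fell by 1.47 in WT (adjusted p = 8.82e-05), as did Cd72 (log2 -1.13, adjusted p = 9.41e-05) and Rasgrp2 (log2 -1.75, adjusted p = 7.99e-05). Vav3 and Pik3r5, with no count in p52ki GC cells, were at least 68.1-fold and 55.3-fold lower there than in naive cells. Vav3, Pik3r5 and Sh3bp2 were also called lower in WT, where Vav3 averaged 0.977 CPM in GC and 16.1 CPM in naive cells. Pik3r5 averaged 1.89 CPM in WT GC and 14.9 CPM in WT naive cells, and Sh3bp2 13.3 CPM in WT GC and 59.3 CPM in WT naive cells. The p52ki count depended on the fit: 25 of 132 were called with the replicate block in place of 42, 20 with the length balance as a covariate and 4 with voom quality weights.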

How the data were processed

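Per the labels' protocols, RNA of sorted B cells was amplified with SMART-Seq v2, made into Nextera XT libraries and sequenced in pairs, without molecular identifiers, so floors allow for error of counting alone. The authors deposited whole-number counts per gene; the submitters' processing notes name HISAT2 2.1.0, SAMtools 1.8, Subread 1.6.2 and featureCounts, and the strand setting is not given in the sources used here.

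Counts were tested with edgeR 4.0.16 (R 4.3.3; quasi-likelihood, TMM scaling, filter on low counts over the 6 groups, 1 fit of all 17 libraries, 11 comparisons, Benjamini-Hochberg adjustment over 15352 genes). Alternatives used DESeq2 1.42.0, limma 3.58.1, other scalings and covariates, and each library left out. The fit was tested on simulated data. RPKM used exon lengths of the annotation. The pathway genes named were at most 6 per comparison, those with the lowest p; like genes were the 2 with the highest r, predicted genes left out. The members and lists were chosen with earlier results of these data known. Same-numbered naive and activated libraries deviated together (r of 0.197 to 0.575 over 7045 genes). Same-numbered pairs with GC libraries had r of -0.439 to 0.142. The labels do not say whether same-numbered libraries came from the same animal. The numbers were used to pair libraries only in the alternatives with a replicate block. The main fit used no pairing. Some genes of the marker and pathway lists are not reported here and were left out of the lists' sums and counts.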

Additional observations from a re-analysis of the deposited data

Results flagged for a closer look

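For 4 of the 132 genes tested of the wider pathway, the change between GC and activated cells differed between p52ki and WT by edgeR's quasi-likelihood test of that difference: Plcg1 (adjusted p = 0.0273), Dok2 (adjusted p = 0.0369), Pik3r5 (adjusted p = 0.0411) and Ubash3b (adjusted p = 0.0444). Of all genes tested, 5.95% were called in that test, so 4 of 132 is no larger a share. All 4 had no count in either p52ki GC library, so their fitted folds are no bounds. Plcg1 was also at 0 in WT activated replicate 1, against 12.93 and 6.96 CPM in WT activated replicates 3 and 4. Dok2 had 0.898, 8.55 and 0.652 CPM in WT GC cells, and Ubash3b had 9.11, 0 and 5.76 CPM there. With the replicate block, with voom quality weights or with the groups compared alone, 0 of the 132 pathway genes passed this test.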

How the results depend on the processing

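Of 99 log2 differences of the 9 genes, 8 were called; 7 of these kept their sign under every alternative and 0 kept both sign and call. Signs turned under at least 1 alternative for 51 of the 99, of which 1 was called. The causes were not tested.

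The number of the 9 genes called between p52ki and WT in GC cells was 1, and it was 0 with voom quality weights, 0 with the detected genes covariate, 3 with the length balance covariate, 0 with the groups alone, 2 against WT GC replicate 3 alone and 0 to 2 on leaving out 1 library. Activated minus naive (0 in both genotypes) gave 3 in p52ki and 1 in WT with voom weights. GC minus activated in p52ki (2) gave 0 with voom weights, 0 with detected genes, 1 with the groups alone, 1 with the replicate block and 0 to 3 with a library left out. In WT (1) it gave 3 with RLE, 2 without the filter, 3 with DESeq2, 3 with voom weights, 3 with detected genes, 3 with length balance, 0 with the groups alone and 0 to 2 with a library left out. GC minus naive in p52ki (2) gave 0 with voom weights, 0 with detected genes, 1 with length balance and 0 to 3 with a library left out. In WT (2) it gave 1 without immunoglobulin genes, 4 with length balance, 0 with the groups alone, 1 with the replicate block and 0 to 2 with a library left out. The difference between genotypes of GC minus activated (0) gave 0 to 2 with a library left out.

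Signs that turned, p52ki minus WT in GC cells: Syk was 0.1 with RLE, 0.098 with DESeq2, 0.095 without immunoglobulin genes, 1.032 with detected genes, 0.768 with length balance, 0.107 with the groups alone, 0.128 with the replicate block, 1.32 against WT GC replicate 3 alone and -0.272 to 0.535 with a library left out. Cd22 was -0.049 with voom weights and -0.094 to 0.748 with a library left out. With detected genes Lyn was 0.304, Btk 0.336 and Ptpn6 0.269; against WT GC replicate 3 alone they were 0.496, 0.7 and 0.485. Btk was 0.106 with length balance and -0.848 to 0.044 with a library left out. With detected genes, Ptpn6 was 0.055 in GC minus activated in p52ki, Cd22 0.092 and Btk 0.179 in GC minus naive in p52ki, and the genotype difference of GC minus activated was 0.279 for Lyn and 0.089 for Ptpn6. With length balance Cd22 was 0.054 and Btk 0.106 in GC minus naive in p52ki. The called Cd79a difference between genotypes in GC cells had an adjusted p of 0.313 with voom weights and 0.621 with the groups alone. Of the 132 pathway genes, 19 were called between genotypes in GC cells; the count was 0 with voom weights or the groups alone, 12 with the replicate block, 30 with detected genes, 33 against WT GC replicate 3 alone and 11 to 41 with a library left out. In GC minus activated, voom weights gave 3 in place of 36 in p52ki and 51 in place of 30 in WT, and the groups alone gave 19 and 10. In GC minus naive, voom weights gave 56 in place of 26 in WT. The shares of all genes called are not given for the alternatives. Counts under the alternatives therefore compare fits, and not the pathway with all genes. The sparse GC libraries, which include both p52ki ones, limit what GC comparisons can show.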
